A study of Mus musculus with 3 samples.

Results

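The engulfment genes Elmo1, Elmo2, Dock1, Dock2, Rac1, Crk, Gulp1, Megf10 and Cdc42 were examined for Foxp3 occupancy in mouse bone marrow-derived macrophages (BMDMs). They are 9 of the 21631 protein-coding genes counted (19 autosomes and X), chosen by their role in engulfment, with earlier results of these data known. Every peak over each gene and the 5 kb beyond both of its annotated ends was taken, which gave 556 of 556535 peaks in Foxp3 replicate 1 and 91 of 95135 peaks in Foxp3 replicate 2. The series has 3 samples of BMDMs grown with M-CSF and fixed lightly with formaldehyde. In 2 of them a Foxp3 antibody (Invitrogen, FJK-16s) was used for CUT&RUN, in which an antibody brings a nuclease to its target and the freed DNA is sequenced, and in 1 an isotype IgG was used. The title speaks of stimulation with brain-derived damage-associated molecules, and the labels do not say which samples received it, nor whether the replicates came from separate animals or cultures. Values of the IgG library were not analysed here, so no site below is set against an antibody background. Expression was not measured in these files, so the cell type named in the labels was not checked.

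A phagocyte takes up a dying cell by remodelling its actin skeleton around it. In the best known route, first worked out in the worm Caenorhabditis elegans, an adaptor of the Crk family and an Elmo protein recruit a Dock exchange factor, which loads the small GTPase Rac with GTP and so drives actin into the engulfing membrane. A parallel route runs from the receptor Megf10, a relative of worm CED-1, through the adaptor Gulp1, a relative of worm CED-6. Cdc42, a GTPase related to Rac, shapes membrane protrusions.

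Peaks of both replicates lay at a start or an end of each of the 9 genes, and the sequences there show what was covered. Listed transcription starts were taken for 7 members. For Rac1 and Megf10 both annotated ends of the gene were used in their place. Below are the bases just before the annotated gene for the 4 members in which peaks of both replicates covered bases of the 250 bp before the listed start that lie outside the gene (RefSeq, GRCm38.p6, the coordinates of mm10, 5′ to 3′). Capitals mark bases that lay inside a peak of each replicate.
Elmo1, chr13:20090257-20090506, plus strand: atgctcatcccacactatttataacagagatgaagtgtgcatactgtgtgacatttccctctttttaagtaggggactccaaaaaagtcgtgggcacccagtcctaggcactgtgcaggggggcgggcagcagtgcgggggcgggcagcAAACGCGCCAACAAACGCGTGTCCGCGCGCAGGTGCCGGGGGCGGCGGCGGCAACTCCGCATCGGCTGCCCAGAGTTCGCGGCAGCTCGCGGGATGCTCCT
Dock1, chr7:134670437-134670686, plus strand: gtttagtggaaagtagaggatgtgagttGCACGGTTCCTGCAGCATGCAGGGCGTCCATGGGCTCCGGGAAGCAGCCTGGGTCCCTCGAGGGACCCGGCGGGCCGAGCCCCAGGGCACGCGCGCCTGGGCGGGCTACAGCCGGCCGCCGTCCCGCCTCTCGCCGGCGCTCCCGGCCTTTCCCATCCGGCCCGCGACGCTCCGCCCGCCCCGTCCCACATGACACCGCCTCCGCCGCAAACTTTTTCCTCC
Crk, chr11:75679009-75679193, plus strand: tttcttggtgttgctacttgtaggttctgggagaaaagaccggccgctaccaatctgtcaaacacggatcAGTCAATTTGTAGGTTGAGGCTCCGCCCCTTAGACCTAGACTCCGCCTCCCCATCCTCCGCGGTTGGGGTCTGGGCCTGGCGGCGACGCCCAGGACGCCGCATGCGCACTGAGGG
Cdc42, chr4:137357760-137358009, minus strand: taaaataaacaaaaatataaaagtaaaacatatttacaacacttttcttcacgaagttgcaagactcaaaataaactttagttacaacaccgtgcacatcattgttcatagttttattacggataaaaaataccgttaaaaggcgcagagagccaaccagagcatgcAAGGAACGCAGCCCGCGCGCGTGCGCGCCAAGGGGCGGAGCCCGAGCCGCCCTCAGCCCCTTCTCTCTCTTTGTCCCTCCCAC
Both replicates together covered 101 of 250 bases upstream of Elmo1, 222 of 250 upstream of Dock1, 115 of 185 upstream of Crk and 83 of 250 upstream of Cdc42. Upstream of Elmo2 and Dock2 no base within 250 bp of the start was in a peak of each replicate.

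Short sequence words of known factors were searched on both strands in windows of 300 bases around the 10 listed starts of the members, with the share of 21045 such windows of protein-coding genes beside them. The forkhead word TGTTTAC was in 0 of 10 member windows and in 3.03% of all windows. The word TTTGTTTG, another forkhead sequence, was in 0 of 10 and in 2.14%. The AP-1 word TGANTCA was likewise in 0 of 10, against 7.04%, and the ETS word CCGGAAGT in 0 of 10, against 5.20%. The Sp1 word GGGCGG was in 6 of 10 member windows and in 46.7% of all windows, and it occurred inside the peaks of both replicates at Elmo1, Dock1, Crk and Cdc42. In Dock1 neighbouring Sp1 words overlap each other. The NF-Y word CCAAT was in 3 of 10, against 38.5%. The word GAGGAAGT of PU.1, a factor of the macrophage lineage, was in 1 of 10 member windows, against 3.15%. It began 38 bases past the Elmo1 start, inside the peaks of both replicates, and is shown in capitals in its surroundings at chr13:20090527-20090556.
Elmo1 start: gccagcaggaggaaggaaGAGGAAGTgaga
These words are descriptions of the reference sequence. A word that was not found says only that its letters were absent from the window.

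All 9 members had a peak in both replicates over the gene and its flanks, which 82.7% of all protein-coding genes had as well. All 9 also had a shared peak, defined here as a mutual overlap of 50% or more of each peak's length, against 63.5% of all genes. Long genes carry peaks more easily. Of the 227 genes of 500 kb or more, a class that holds Elmo1, Dock1 and Dock2, 99.6% had a shared peak. Of the 902 genes from 150 to 300 kb, a class that holds Gulp1 and Megf10, 91.1% had one. Of 5035 genes from 20 to 50 kb, a class that holds Elmo2, Rac1, Crk and Cdc42, 71.7% had one. At the starts, 7 of 7 members with a listed start had a peak of each replicate within 1 kb, against 61.1% of 17274 genes, and 6 of 7 had a shared peak there, against 44.1%. With either annotated end in place of the start, the count was 9 of 9, against 62.2%. Replicate 1 holds many more peaks than replicate 2, so the strongest 95135 peaks of replicate 1 were also used alone. All 9 members then still had a shared peak, against 54.2% of genes when these peaks were ranked by their deposited −log10 q and 50.4% when they were ranked by fold enrichment. No test of the members against other genes was made.

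**Figure D1:**
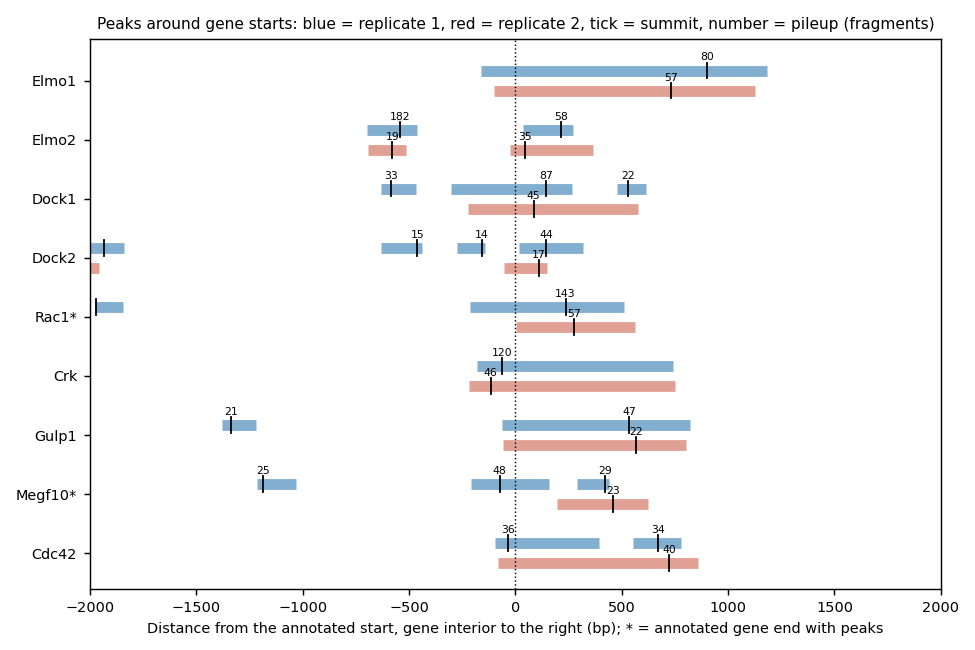
Peaks within 2 kb of the start of each member (for Rac1 and Megf10, of the annotated end that carries peaks), with distance in bp on the x axis and the gene interior to the right. Blue bars are replicate 1 peaks and red bars replicate 2 peaks, ticks mark summits and numbers give the summit pileup in fragments. The strongest replicate 2 start peak had 17 fragments at Dock2 and 57 at Elmo1 and Rac1.

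Strength is given below as the deposited fold enrichment, which is the number of fragments over the summit plus 1, divided by a background term that the authors' peak caller took from the same library. In the entry route, Megf10 (gene ID 70417, 164378 bp long) had its highest peak of each replicate at the lower-coordinate end, but these did not overlap each other. The overlapping peaks there had summit pileups of 29 and 23 fragments in replicates 1 and 2, with folds of 7.93 and 4.71. These peaks overlapped by 152 bp, which was all of the replicate 1 peak but only 35.4% of the replicate 2 peak, so they were not counted as shared. Replicate 1 had a stronger peak across the end itself, with 48 fragments and a fold of 13.0, and no replicate 2 peak overlapped it. The only shared peak of Megf10 lay inside the gene, 128969 bp from that end in replicate 1, with folds of 11.4 in replicate 1 and 4.12 in replicate 2.

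Gulp1 (gene ID 70676, chromosome 1, positions 44551380 to 44796838) had a shared peak across its start, spanning 44551606 to 44552493 (replicate 1) and 44551614 to 44552474 (replicate 2). Pileups were 47 and 22 fragments in replicates 1 and 2, and folds were 11.2 and 3.79. Both summits lay inside the gene, 534 and 568 bp past the listed start. The long non-coding RNA gene Gm39635 ends at 44551457, within 1 kb of these summits, so the site could not be assigned to Gulp1 alone. Gulp1 had further shared peaks 141070 and 176872 bp past the start (replicate 1 summits). At the first of these the folds were 7.14 in replicate 1 and 5.69 in replicate 2, the highest of the gene in replicate 2. At the second they were 14.3 and 3.34, the highest of the gene in replicate 1.

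Crk (gene ID 12928, chromosome 11, positions 75679194 to 75708428), which couples receptors to Dock1, had its site at the start. There were peaks spanning 75679079 to 75679998 (replicate 1) and 75679040 to 75680011 (replicate 2), with 120 and 46 fragments and folds of 18.2 and 6.83. This was the only replicate 2 peak of the Crk window, while replicate 1 had 7. The highest fold in replicate 1, 20.9 with 78 fragments, lay inside the gene 13340 bp from the listed start, where replicate 2 had no peak.

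The Elmo proteins are scaffolds that bind Dock proteins and relieve their self-inhibition. Elmo1 (gene ID 140580, chromosome 13, positions 20090507 to 20608353) had a long shared peak at its start, spanning 20090346 to 20091689 (replicate 1) and 20090406 to 20091634 (replicate 2). Pileups were 80 and 57 fragments and folds 11.5 and 6.96, with summits 901 and 731 bp inside the gene. The start peak had the highest fold of 17 replicate 2 peaks over Elmo1 and the 5th highest of 121 replicate 1 peaks. The highest fold in replicate 1, 18.0 with 91 fragments, lay 196438 bp inside the gene and had no replicate 2 partner. A second listed start of Elmo1, at 20472990, had a weak peak of 15 fragments in replicate 1 within 1 kb and none in replicate 2.

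Elmo2 (gene ID 140579, chromosome 2, positions 165288031 to 165326479) had the largest ratio of folds between the replicates among the members' shared pairs. It carried a shared site upstream of its outermost start, with summits at −544 and −579 bp, from 165326942 to 165327176 in replicate 1, and a second one on the start, from 165326209 to 165326442 in replicate 1. In replicate 1 the upstream site had 182 fragments and the start site 58. In replicate 2 the upstream site had 19 fragments and the start site 35. The folds of the upstream site were 23.0 in replicate 1 and 2.64 in replicate 2, a ratio of 8.69, and those of the start site were 6.84 and 4.49. The order of these neighbouring sites was thus opposite in the replicates. Within the lists, the upstream site was at or above 99.8% of replicate 1 peaks and 0.673% of replicate 2 peaks.

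Dock1 and Dock2 are the exchange factors. Dock1, known as Dock180, is widely expressed, and Dock2 is the form of blood cells. Dock1 (gene ID 330662, chromosome 7, positions 134670687 to 135173647) had a shared peak on its start, spanning 134670385 to 134670954 (replicate 1) and 134670465 to 134671264 (replicate 2). It had 87 and 45 fragments, folds of 11.6 and 6.09, and summits 145 and 86 bp inside the gene. Dock1 held 7 shared peaks, the most of the 9 genes. Its other 6 had replicate 1 folds between 3.17 and 5.48 and replicate 2 folds between 3.04 and 5.69. The gene Insyn2a lies within Dock1, from 134881908 to 134938430, and 2 of these peaks lay in it. A replicate 1 peak of 1199 bp and 60 fragments covered the upper end of Insyn2a, where its transcription starts, and 2 separate replicate 2 peaks of 32 and 28 fragments lay under it. The highest fold in replicate 1 was 24.9, with 138 fragments, 376163 bp past the Dock1 start, and no replicate 2 peak overlapped it.

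Dock2 (gene ID 94176, chromosome 11, positions 34226815 to 34783905) differed from Dock1 in where its strong site lay. At the start, replicate 1 had a peak of 44 fragments and fold 11.9, and replicate 2 one of 17 fragments and fold 3.53. They overlapped by 131 bp, 43.8% of the replicate 1 peak, and were not counted as shared. The strongest shared site of Dock2 lay past the opposite end of the gene, spanning 34223050 to 34223617 (replicate 1) and 34223192 to 34223651 (replicate 2). It had 131 and 34 fragments and folds of 17.8 and 6.87, the highest of the Dock2 window in either replicate. Its summits were at −3466 and −3404 bp from the lower-coordinate end of Dock2 (negative is outside the gene), with no other annotated gene within 1 kb. A second shared site, with folds of 13.2 and 4.52, lay inside Dock2 553244 bp from the start.

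Dock2 also held a long stretch without replicate 1 peaks, from 34537549 to 34691958, of 154 kb. The median distance between neighbouring replicate 1 peaks was 2.32 kb in the Dock2 window and 2.33 kb in the whole list. Only 24 of 555514 distances in the replicate 1 list were as long. Replicate 2 had 1 peak in the stretch, of 15 fragments, and its own longest empty stretch in Dock2, 184 kb from 34497892 to 34681911, overlapped it. In replicate 2, however, 1101 of 94799 distances were as long. The longest empty stretches of replicate 1 in the other members were 52.5 kb in Gulp1 and from 3.65 kb to 17.0 kb in the rest. The cause of these stretches was not tested, and the Dock2 stretch was picked out after its values were seen.

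**Figure D2:**
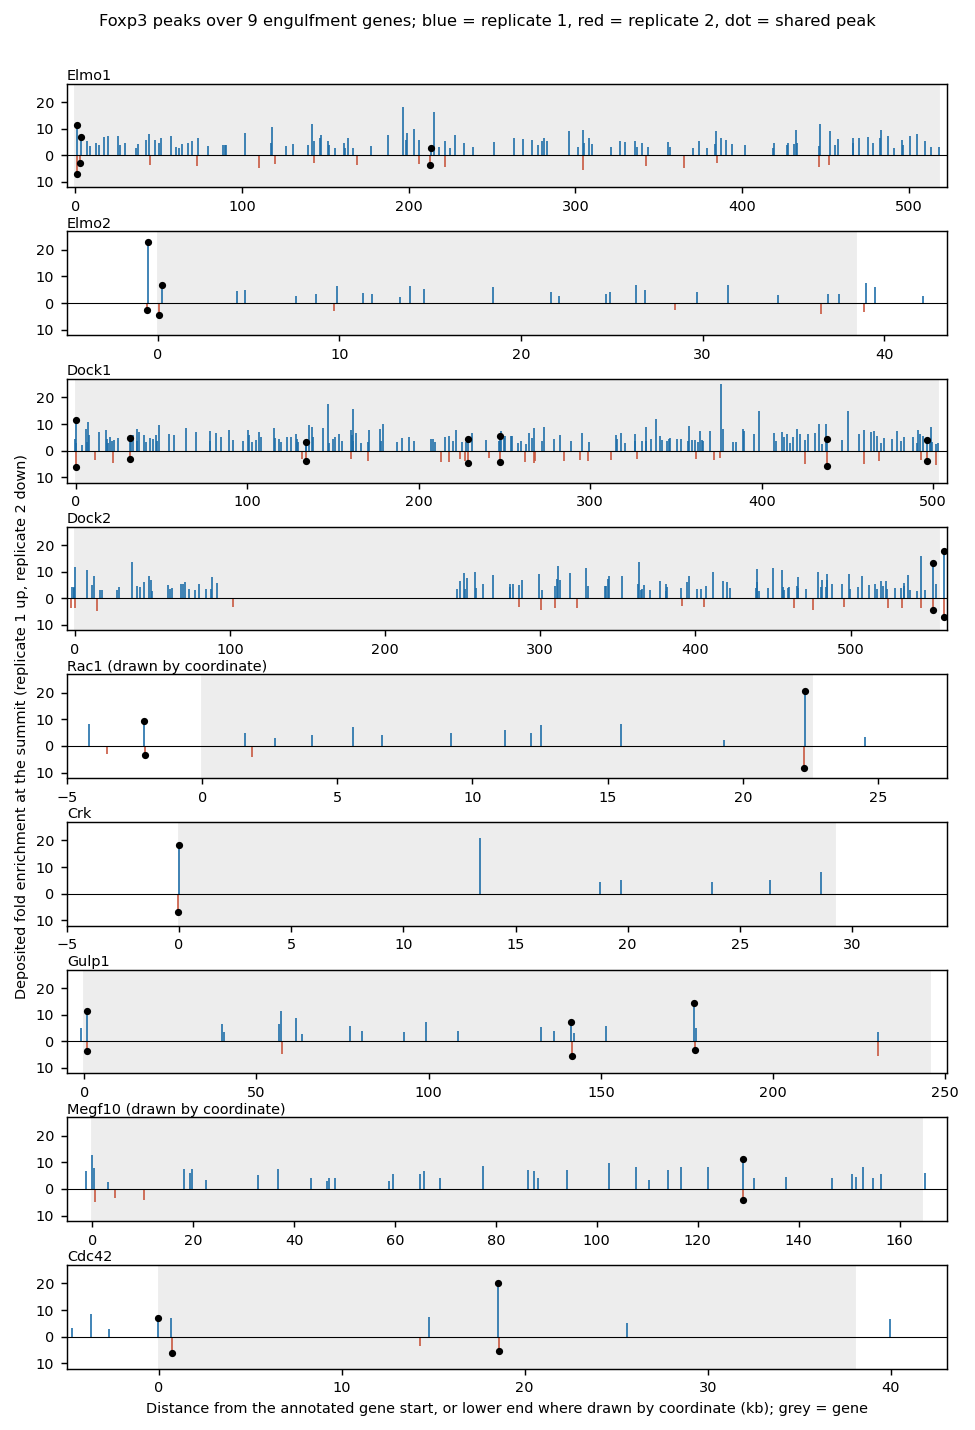
Every peak over the 9 genes and 5 kb beyond, by distance from the annotated gene start in kb (for Rac1 and Megf10, from the lower-coordinate end). Replicate 1 folds point up and replicate 2 folds down on 1 scale, black dots mark shared peaks, and grey marks the gene. The empty 154 kb of Dock2 and the sites at the starts of Elmo1, Dock1 and Crk can be seen.

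Rac1 is the GTPase at the end of the route, and Cdc42 is a GTPase related to it. Rac1 (gene ID 19353, chromosome 5, positions 143505481 to 143528031) carried the site with the highest mean fold of the 9 genes, at its higher-coordinate end. It was a pair of peaks spanning 143527520 to 143528246 (replicate 1) and 143527467 to 143528029 (replicate 2), with 143 and 57 fragments and folds of 20.8 and 8.21 (mean 14.5 ± 8.88, SD, n = 2). The summits were 42 bp apart. A second shared peak, with folds of 9.55 and 3.22, lay beyond the lower end, inside the neighbouring gene Daglb.

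Cdc42 (gene ID 12540, chromosome 4, positions 137319696 to 137357759) had start peaks that were divided differently in the replicates. Replicate 2 had a single peak of 942 bp and 40 fragments there, from 137356901 to 137357842. Under it replicate 1 had 2 peaks, of 36 and 34 fragments, with summits at −34 and 669 bp from the start; the first of them counted as shared. Their folds were 7.03 and 7.17, against 6.27 in replicate 2. In replicate 1 the strongest Cdc42 site lay elsewhere, 18565 bp past the start, with 75 fragments and a fold of 20.1. It was shared, and replicate 2 had 26 fragments and a fold of 5.30 there.

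The strongest start peak of each gene, taken in each replicate on its own, was set beside those of other genes. The ranks of a gene thus need not describe the same site in both replicates. At Elmo2 they were those of the upstream site in replicate 1 and of the start site in replicate 2. At Megf10 the ranked peaks did not overlap each other. The Crk start, with folds of 18.2 and 6.83, was above the medians of 11.8 and 5.53 (replicates 1 and 2) of the 10557 genes that had a peak of each replicate within 1 kb of a listed start. In replicate 1, 86.7% of these genes had a strongest start fold no higher than that of Crk, and in replicate 2 77.2% did. For Elmo1 these shares were 47.5% and 79.3%, and for Dock1 48.8% and 62.6%. Cdc42 was low in replicate 1 and above the median in replicate 2, at 14.8% and 66.9%. Elmo2 was the reverse, at 96.6% and 24.2%. Gulp1 and Dock2 were near the median in replicate 1, at 44.9% and 51.0%, and low in replicate 2, at 10.7% and 7.12%. Against the 13463 genes with peaks at either annotated end, Rac1 stood at 93.7% in replicate 1 and 93.3% in replicate 2, and Megf10 at 61.1% and 33.7%. Rac1 and Crk were thus the 2 members above 50% in both replicates. These are ranks among genes that had peaks in both, and no test was made of them.

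Of the members' replicate 2 peaks, 23 of 91 were shared (25.3%, 95% exact binomial interval 16.7 to 35.5%), and 32.8% of all replicate 2 peaks on these chromosomes were. Of their replicate 1 peaks, 23 of 556 were shared (4.14%, 2.64 to 6.14%), and 5.60% of all replicate 1 peaks were. Sharing differed by place. Of the members' replicate 2 peaks within 1 kb of a start or of the ends used for Rac1 and Megf10, 8 of 11 were shared (72.7%, 39.0 to 94.0%). Elsewhere in the windows 15 of 80 were (18.8%, 10.9 to 29.0%). Over all replicate 2 peaks the corresponding shares were 63.7% near a listed start and 28.3% elsewhere. Peaks of a gene are not independent samples, and the intervals cover counting error only. Of the 23 shared pairs, 4 had a replicate 2 summit in, or within 1 kb of an end of, another annotated gene. The summits of a pair were 55 bp apart at the median, and 17 of 23 pairs were within 100 bp. The overlap required of a shared pair already limits this distance, which was not measured over all shared pairs.

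**Figure D3:**
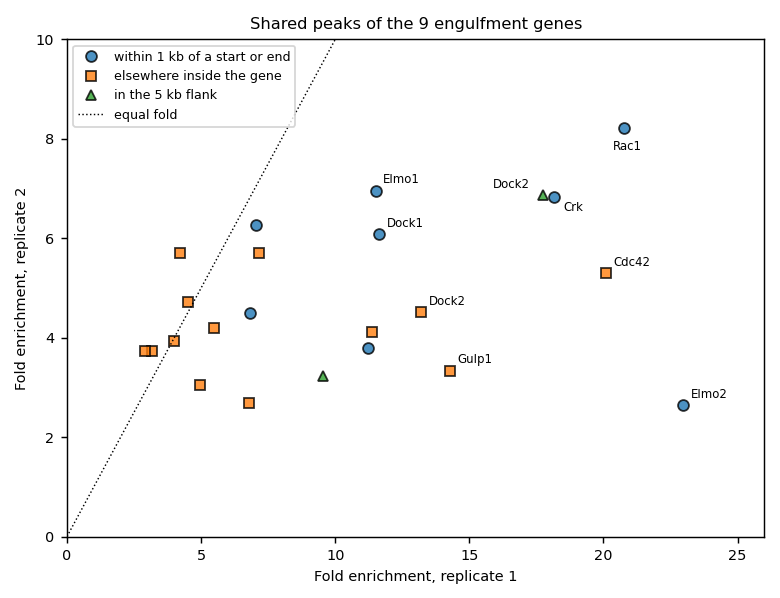
Fold enrichment of the 23 shared peaks in replicate 1 (x axis) and replicate 2 (y axis, on a narrower scale), by place in the gene. Names mark the points with the highest mean fold. The dotted line marks equal fold, and 19 of 23 points lie below it. Rac1 is high in both replicates, and the upstream Elmo2 site is high in replicate 1 only.

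Replicate 1 gave the higher fold at 19 of 23 shared peaks and the higher pileup at 17 of 23. The ratio of replicate 1 to replicate 2 folds had a median of 1.91 and ran from 0.741 in Dock1 to 8.69 in Elmo2. Median folds of the shared peaks were 9.55 and 4.49 in replicates 1 and 2. These counts, ratios and medians were not taken over all shared pairs, so nothing particular to the members can be read from them. Over all peaks on the 19 autosomes and X, the median fold was also higher in replicate 1, at 4.918 against 3.996 in replicate 2. The median pileup of all these peaks was 21 in each replicate. Across the 23 pairs the folds had a Spearman's rho of 0.32, given as a description, since the pairs come from 9 genes and the same 2 libraries. The replicates also differed in which site was strongest. In replicate 2 the highest fold of the window lay near a start, or near an end of Rac1 or Megf10, in 7 of 9 genes, the exceptions being Dock2 and Gulp1. In replicate 1 this held for 3 of 9, Elmo2, Rac1 and Megf10. For 4 genes (Elmo1, Dock1, Crk and Megf10) the highest replicate 1 peak overlapped no replicate 2 peak. The shares of all genes with these traits were not counted, so nothing particular to the members can be read from them. Replicate 2 also had fewer peaks to choose from, 91 against 556 over the windows and 1 against 7 at Crk.

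The strongest replicate 2 start peak of most members was long. It measured 1229 bp at Elmo1, 972 bp at Crk, 942 bp at Cdc42, 861 bp at Gulp1, 800 bp at Dock1, 563 bp at Rac1, 429 bp at Megf10 and 391 bp at Elmo2, against a median of 236 bp in the whole list. At Dock2 it was 201 bp. Weaker replicate 2 peaks near Elmo2 starts, of 193 and 180 bp, were also shorter than that median. Long peaks at starts were general, since all replicate 2 peaks near a listed start had a median of 470 bp, against 227 bp elsewhere.

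The background term by which fragments are divided was larger near starts at the median. That term was recovered as pileup plus 1 over fold, so it is not itself a count of background fragments. It had a median of 5.96 for the members' replicate 1 peaks near starts and 3.78, the smallest value in the list, elsewhere. In replicate 2 it was 7.06 near starts and 5.09 elsewhere. The start peaks of Dock2 and Megf10 were exceptions, with the smallest term of each list. At Elmo1, 80 fragments gave a fold of 11.5 at the start, while 91 fragments gave 18.0 in the interior. In Crk, 120 fragments at the start gave 18.2 and 78 fragments in the interior gave 20.9. Ranked by fragments instead of fold, the Crk start was thus first of its 7 replicate 1 peaks, and the Elmo1 and Dock1 starts were second of 121 and of 189. The Dock2 start was 7th by fold and 9th by fragments, and the Elmo2 peak on the start was 4th by fold and 8th by fragments. Near the listed starts of all genes the median term was 5.82 in replicate 1 and 6.19 in replicate 2.

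**Figure D4:**
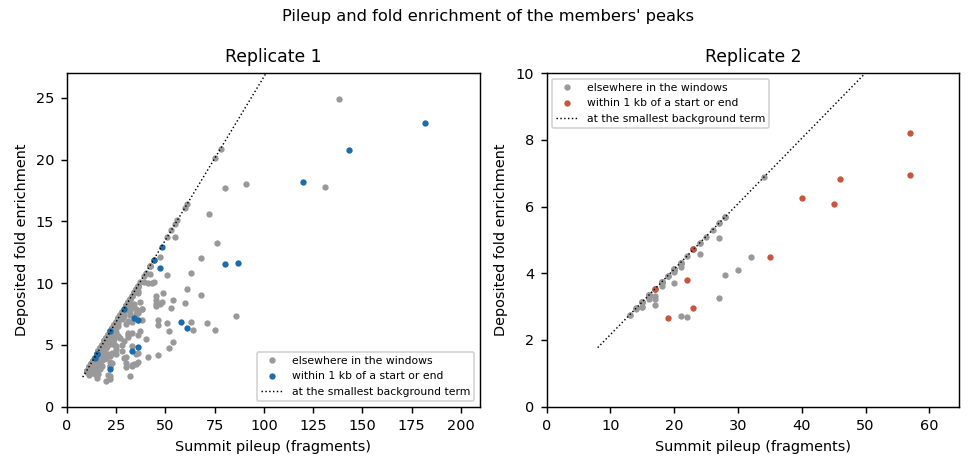
Summit pileup in fragments (x axis) against deposited fold enrichment (y axis) for the members' 556 replicate 1 and 91 replicate 2 peaks, each panel on its own scale. Coloured points lie within 1 kb of a start or end and grey points elsewhere. The dotted line is the fold at the smallest background term, and points below it had a larger background term.

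Peak density differed widely among the genes. Elmo2 had 5.57 replicate 1 peaks and 1.24 replicate 2 peaks per 10 kb, and Rac1 had 5.22 and 1.23. These were above the medians of all protein-coding genes, 3.06 and 0.616. Dock1 was slightly above both, at 3.68 and 0.643. Cdc42 was below in replicate 1 and close to the median in replicate 2, at 1.87 and 0.624. Elmo1 (2.29 and 0.322), Dock2 (2.20 and 0.317), Megf10 (2.29 and 0.229) and Crk (1.78 and 0.255) were below these all-gene medians in both. Gulp1 was the sparsest, at 0.822 and 0.196, and 7.68% of all genes had a lower replicate 1 density. Flanks add a start or an end to every window, which weighs more in short genes. Flank peaks can also belong to neighbours. At Rac1, 5 of 17 replicate 1 peaks lay in the flanks, some of them in Daglb. Of its 4 replicate 2 peaks 2 did, both in Daglb. The flank peaks of Elmo2, 3 of 27 and 1 of 6, lay in Slc35c2. Over all members, 80 of 556 and 19 of 91 peaks had summits in, or within 1 kb of an end of, another gene. Median density was lower in long genes, at 1.45 and 0.188 among genes of 500 kb or more. Elmo1, Dock1 and Dock2 were above both of these. Medians were 2.46 and 0.344 among genes from 150 to 300 kb, and Megf10 and Gulp1 were below both. Among genes from 20 to 50 kb the medians were 3.20 and 0.606. Elmo2 and Rac1 were above both, Crk was below both, and Cdc42 was below in replicate 1 only. Counts can be set beside the same classes of genes. Dock1 had 189 replicate 1 and 33 replicate 2 peaks, Elmo1 121 and 17, and Dock2 125 and 18, against medians of 119 and 15 among genes of 500 kb or more. Megf10 had 40 and 4 and Gulp1 21 and 5, against medians of 52 and 7 among the 902 genes from 150 to 300 kb. Elmo2 had 27 and 6, Rac1 17 and 4, Cdc42 9 and 3, and Crk 7 and 1, against medians of 13 and 2 among genes from 20 to 50 kb.

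**Figure D5:**
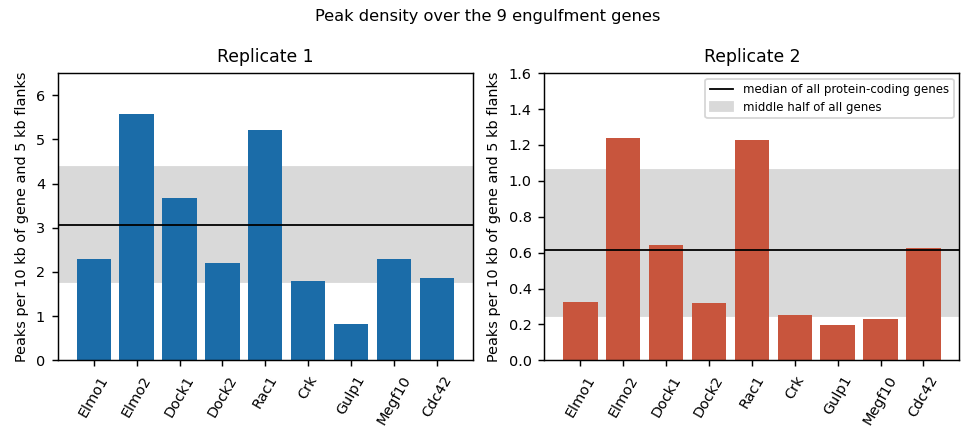
Peaks per 10 kb of each gene with its 5 kb flanks, in replicate 1 and replicate 2. The line is the median of all 21631 protein-coding genes and the grey band spans their middle quartiles. Elmo2 and Rac1, with flank peaks in neighbouring genes counted, stand above the band in both replicates. Gulp1 and Megf10 lie below it in at least 1.

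Other genes of engulfment and actin control, a list of 30, were counted in the same way. A peak of each replicate was found over 29 of 30, and a shared peak over 27 of 30, beside the 82.7% and 63.5% of all genes. Of the 22 with a listed start, 21 had peaks of both replicates within 1 kb of it and 16 had a shared peak there, beside the 61.1% and 44.1% of all genes with one. The list mixes short genes with long ones such as Dock4 (400918 bp) and Trio (295200 bp). Of all genes from 150 to 300 kb, 99.2% had a peak of each replicate and 91.1% a shared peak. Of those from 20 to 50 kb, 91.6% and 71.7% did. Elmo3, a further Elmo scaffold and a gene of 5163 bp, had 8 replicate 1 peaks and no replicate 2 peak. Rac2, the Rac of blood cells, and Pak2, a kinase that acts downstream of Rac, had peaks in both replicates and none shared. Stab1, a receptor for dying cells, had no start site in both replicates. The 5 genes of the list with the strongest shared sites by rank were Nckap1 with folds of 17.7 and 8.57 in replicates 1 and 2, Wasl with 21.4 and 7.74, Abi1 with 16.1 and 7.99, Nckap1l with 21.1 and 7.17, and Wasf1 with 25.8 and 6.95. No test of this list was made.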

How the data were processed

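Peak lists of 2 Foxp3 CUT&RUN libraries were used. The submitters used CASAVA 1.4 and the mm10 build, per the submitters' processing notes. The aligner was not given in the sources used here. The authors called peaks with MACS 2.1.1.20160309, per the file headers, on each library separately, in paired-end mode, at a q-value cutoff of 0.01, with no control library and all duplicates kept; a listed peak therefore need not be specific to the antibody, and copies of 1 molecule add to its height. Replicates 1 and 2 held 33294105 and 34898401 fragments per the file headers, and the smallest pileups called were 10 and 13, so weaker sites could not be seen. The fragment size was 130 bp in replicate 1 and 180 bp in replicate 2. Peak lengths and overlaps were thus compared between lists of unlike fragment size, and its effect was not tested. The deposited pileup is a signal, the raw number of fragments over the summit. Fold enrichment as deposited is a ratio to a background term of the same library, genome-wide or over 10000 bp. The deposited significance is −log10 of a p-value or q-value.

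Gene positions came from RefSeq GRCm38.p6, whose coordinates on these chromosomes are those of mm10. Starts were those of its promoter table, which matched 7 of the 9 members and 17274 of 21631 protein-coding genes. Exons and introns were not used here. Peaks overlapping a window by 1 bp were counted. A shared peak needed an overlap of 50% of each peak's length. The counting code was tested on simulated data. No comparison between groups exists in these files, so no p-value was computed. Python 3.11.15, pandas 2.3.3, numpy 2.4.6, scipy 1.17.1 and matplotlib 3.10.9 were used. The members, the list of 30 further genes, the sequence words and all settings were chosen with earlier results of these data known. Named are all members with their strongest shared peak, start peaks and highest peaks, and of the 30 genes the 5 strongest by mean within-list percentile and those without replicate 2 peaks. Rac2, Pak2 and Stab1 were named after their values were seen, as was the empty stretch of Dock2. Alternatives were a 1 bp overlap, stricter peaks, equal numbers of peaks, other windows and each replicate alone.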

Additional observations from a re-analysis of the deposited data

How the results depend on the processing

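All 9 members kept a peak in both replicates and a shared peak under a 1 bp overlap, peaks with −log10 q of at least 5, equal numbers of peaks by either ranking, no flank and flanks of 10 kb. With peaks of fold 5 or more, 7 of 9 did, without Elmo2 and Megf10. Each replicate alone gave peaks over all 9 genes (range 9 to 9) and at all 7 listed starts (range 7 to 7), and start distances of 500 bp and 2 kb also gave 7. Start sites in both replicates fell to 6 with −log10 q of at least 5 and with equal numbers of peaks by either ranking. They fell to 4 with peaks of fold 5 or more. Against 23 shared peaks, there were 42 with a 1 bp overlap, 8 with peaks of fold 5 or more, and 14 or 12 with the strongest replicate 1 peaks by −log10 q or by fold, of which 7 and 6 lay near starts. The shared percentage of replicate 2 peaks was 46.2%, 57.1%, 15.4% and 13.2% in the same order. Restricting replicate 1 in this way also lowered its density over the windows to 0.390 and 0.449 per 10 kb, against 2.52 with all its peaks, by construction, and peaks of fold 5 or more lowered that of replicate 2 to 0.0635, against 0.413. The mean fold of each member's strongest shared peak was unchanged with equal numbers of peaks by either ranking. Under both stricter settings it was also unchanged in Elmo1, Dock1, Dock2, Rac1, Crk and Cdc42. All of these settings only remove peaks, so a strongest pair whose peaks both pass keeps its value by construction. Elmo2 and Megf10 had no shared peak at fold 5 or more. With −log10 q of at least 5 Megf10 was unchanged, while the mean fold of Elmo2 was 5.66, against 12.8. There the weak replicate 2 peak of the upstream Elmo2 site was left out. In Gulp1 the replicate 2 peak of the strongest shared site was left out under both stricter settings. Other Gulp1 peaks, with lower mean folds, then took its place. The shifts of Elmo2 and Gulp1 were smaller than the SD between replicates. That SD comes from 2 folds and was large, so it cannot show that these sites were stable. No paired analysis was possible because only 1 group has values. The results rest on 2 libraries without IgG values, and sites under 10 fragments in replicate 1 or 13 in replicate 2 could not be seen.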
